A study of Mus musculus with 16 samples.

Results

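Gfap and 9 further genes that astrocytes raise in injured or inflamed brain were followed across 16 RNA-seq libraries of mouse hippocampus. The 10 genes were Gfap, Vim, Serpina3n, Aspg, Lcn2, Osmr, Cd44, S1pr3, Steap4 and Ggta1. They were picked by symbol, each matched 1 row of the 55385 genes counted, and all 10 were among the 16684 genes with enough counts for a test. The choice applied no rule on measured values, but the list was drawn up with earlier results of these data known. Counts of members set beside all genes are therefore descriptions.

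The mice were 5 months old and had 1 of 4 genotypes, with 4 libraries each. They were wild-type C57BL/6J, Dp16, 5xFAD and the combination of both, 5xFAD-Dp16. Dp16 mice carry a duplicated segment of mouse chromosome 16 and model Down syndrome. No member lies on that chromosome. 5xFAD mice carry human amyloid precursor and presenilin transgenes with familial Alzheimer disease mutations, which the Thy1 promoter drives in neurons, so astrocytes are not the cells in which the transgenes are meant to be active. The strain background of the last 3 genotypes was not given in the sources used here. Wild-type, Dp16 and 5xFAD each had 2 females and 2 males, and the 4 5xFAD-Dp16 libraries were all male. The labels do not state that each library is a separate mouse, so every p-value measures the spread between these libraries.

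Astrocytes answer injury, infection and amyloid deposits with a programme called reactive gliosis. They enlarge, build more intermediate filaments from Gfap and Vim, and secrete proteins such as Serpina3n and Lcn2. Cytokines of the interleukin 6 family, acting through receptors such as Osmr and the transcription factor Stat3, and signals released by microglia are known inducers of this state. In the hippocampus many astrocytes contain Gfap without any injury.

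The data were counts of polyadenylated transcripts, with 15.8 to 25 M counts per library (M, mega). Levels of a single gene are given as CPM (counts per M counts, after scaling between libraries), and levels of different genes are compared only in RPKM, which also divides by gene length. Astrocyte RNA was present throughout: a list of 18 homeostatic astrocyte genes, Aqp4, Slc1a2 and Aldh1l1 among them, summed to between 10740 and 12920 CPM in the 16 libraries. Some libraries stood apart in genes of neighbouring brain regions. A list of 12 midbrain and hypothalamus genes summed to 664 CPM in wild-type replicate 4, 540 in 5xFAD replicate 2 and 259 in 5xFAD-Dp16 replicate 3, against 117 to 174 in the other 13. A list of 12 thalamus genes was highest in 5xFAD replicate 4, at 683 CPM against 221 to 423 elsewhere. Where a named call changed without these 4 libraries, the value without them is given beside it.

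The members lie at 10 separate loci (mouse build GRCm38). Gfap spans chromosome 11, 102887336 to 102900912, on the minus strand, where a long noncoding gene, Gm26668, overlaps it on the other strand. Vim spans chromosome 2, 13573927 to 13582826, on the plus strand. Serpina3n spans chromosome 12, 104406729 to 104414329, and Aspg spans the same chromosome from 112106679 to 112127559, both on the plus strand. Osmr spans chromosome 15, 6813577 to 6874969, on the minus strand. Ggta1 spans chromosome 2, 35400179 to 35463231, Lcn2 32384633 to 32388252 and Cd44 102811141 to 102901665, all on the minus strand of chromosome 2. S1pr3 spans chromosome 13, 51408639 to 51422797, with the noncoding gene Gm32834 opposite, and Steap4 spans chromosome 5, 7960457 to 7982213, both on the plus strand. The use of strand in counting was not given in the sources used here. Reads of Gfap and Gm26668, and of S1pr3 and Gm32834, could not be told apart with certainty.

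The sequences just upstream of 4 start sites are shown. Gfap and Aspg are the members that separated the transgene carriers from the other libraries. The windows of Serpina3n and Steap4 matched a motif that was looked for. The windows of Vim, which also matched, and of Osmr lie wholly within annotated exons of those genes and are not shown. Each is taken from RefSeq start sites on GRCm38.p6 and is written 5′ to 3′ on the strand of the gene. The window of Gfap (chr11:102897201-102897450, minus strand) lies within an intron of a longer annotated Gfap transcript. The others are chr12:104406458-104406707 for Serpina3n, chr12:112106433-112106678 for Aspg and chr5:7960222-7960456 for Steap4, all on the plus strand. For Aspg and Steap4 the last 4 and 15 bases before the RefSeq start site lie in annotated exons of the gene and are not printed. Distances of motifs are counted from the RefSeq start site, not from the end of the printed sequence. Capitals mark a motif match.
Gfap: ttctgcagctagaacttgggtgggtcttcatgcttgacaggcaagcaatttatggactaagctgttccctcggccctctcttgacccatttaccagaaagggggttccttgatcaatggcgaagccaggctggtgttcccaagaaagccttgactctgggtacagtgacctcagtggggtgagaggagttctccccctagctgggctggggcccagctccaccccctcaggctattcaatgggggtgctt
Aspg: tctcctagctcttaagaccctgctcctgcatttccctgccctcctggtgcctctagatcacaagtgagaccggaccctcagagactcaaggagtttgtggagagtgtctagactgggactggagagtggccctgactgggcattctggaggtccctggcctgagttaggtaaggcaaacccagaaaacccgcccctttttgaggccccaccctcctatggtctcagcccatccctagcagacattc
Serpina3n: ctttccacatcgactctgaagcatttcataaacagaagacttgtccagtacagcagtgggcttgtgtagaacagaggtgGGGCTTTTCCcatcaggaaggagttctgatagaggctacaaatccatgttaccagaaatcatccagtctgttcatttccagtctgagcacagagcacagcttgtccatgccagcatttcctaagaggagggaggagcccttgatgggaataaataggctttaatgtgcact
Steap4: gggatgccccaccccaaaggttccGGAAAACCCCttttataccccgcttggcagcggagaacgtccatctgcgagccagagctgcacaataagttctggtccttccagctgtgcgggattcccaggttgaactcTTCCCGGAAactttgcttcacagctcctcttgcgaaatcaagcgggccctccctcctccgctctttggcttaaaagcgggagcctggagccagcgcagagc

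Both strands of the 250 bases upstream of each RefSeq start site were searched. The windows of Vim and Osmr lay wholly within annotated exons of those genes, as did 197 of the 250 bases of the Lcn2 window. The Ggta1 window lay within an annotated transcript of that gene. All 10 windows were kept in the counts below. The STAT motif TTCNNNGAA was present in 1 of the 10 members, Steap4, where TTCCCGGAA begins 116 bases upstream, against 7.02% of 32851 mouse promoter windows. The narrower form TTCCNGGAA, which lies within it, was in 0.913% of all windows and in the same member. The NF-kB motif, spelled GGG, any 3 bases and TTCC, was in 3 members, Vim, Serpina3n and Steap4, against 4.65% of all windows. In Serpina3n it reads GGGCTTTTCC from 171 bases upstream, and in Steap4 it lies on the other strand, as GGAAAACCCC from 226 bases upstream. The AP-1 motif TGANTCA was in 0 of the 10 and in 6.75% of all windows. These letters are a description of short windows, and no binding was measured.

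Per length, Gfap was the most abundant member in every genotype. Its deposited RPKM averaged 295 ± 64.0 in 5xFAD and 256 ± 26.5 in 5xFAD-Dp16, against 107 ± 15 in wild-type and 109 ± 4.14 in Dp16 (SD, n = 4 per genotype). Vim and Serpina3n came next, with group means between 21.0 and 35.6 RPKM, and their libraries overlapped each other in each genotype. The other 7 members had group means between 0.238 and 2.90 RPKM. In wild-type the order among these was S1pr3, Ggta1, Osmr, Cd44, Aspg, Steap4 and Lcn2, and the only neighbours whose libraries did not overlap were Cd44 and Aspg. Ggta1 had the fourth highest mean in 5xFAD and in 5xFAD-Dp16, where S1pr3 had it in wild-type and Dp16, but its libraries overlapped those of the next gene in each.

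**Figure D1:**
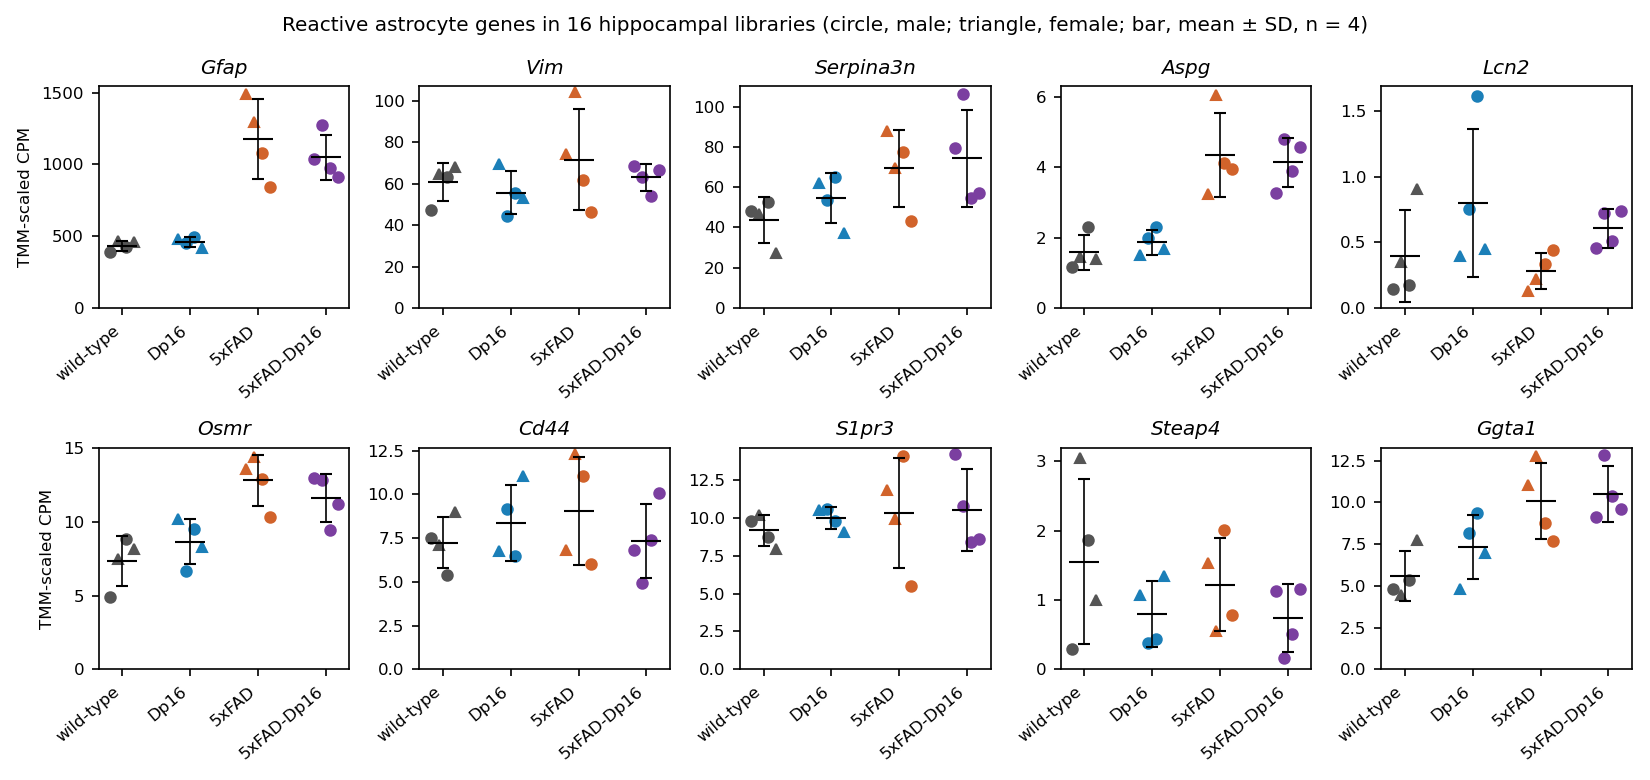
TMM-scaled CPM of each of the 10 genes (vertical axis, one scale per gene) in the 16 libraries by genotype, with circles for males, triangles for females and bars for the mean and SD of 4 libraries. Gfap and Aspg lie higher in all 8 libraries with the 5xFAD transgenes than in any of the 8 without, while Steap4 and Lcn2 scatter widely within genotypes.

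In 5xFAD against wild-type, 3 of the 10 members were higher and 0 were lower at an adjusted p below 0.05 in edgeR. Over all genes tested 0.965% were called higher and 0.00599% lower. The 3 were Gfap, Aspg and Osmr. Those 3 were also the members whose 4 5xFAD libraries all lay above the 4 wild-type libraries, as 3.18% of all genes did. Of the 10, 8 had a positive log2 fold change, against 53.5% of all genes, and the median over the members was 0.51 against 0.02 over all genes. In bulk tissue a larger number of cells and more RNA per cell cannot be told apart, which applies to every difference given here.

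Gfap, the main filament protein of astrocytes, was at 387, 463, 422 and 459 CPM in the 4 wild-type libraries and at 1491, 1292, 1081 and 841 CPM in the 4 5xFAD libraries. The lowest 5xFAD library thus lay well above the highest wild-type library. Group means were 433 ± 35.4 CPM in wild-type and 1176 ± 279 in 5xFAD (SD, n = 4). The fitted log2 fold change was 1.43 (SE 0.143, edgeR adjusted p 2.32e-05), a 2.69-fold difference with a 95% interval of 2.18 to 3.33. It stayed called in every other setting that was run. The spread among the 5xFAD libraries was wide, and the lowest of them, replicate 4, was the library with the most thalamus RNA. Without the 4 libraries that stood apart the log2 fold change was 1.58 (SE 0.145, edgeR adjusted p 1.15e-05).

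Vim, the filament protein that assembles with Gfap and is also made by endothelial and ependymal cells, did not pass. Its 4 wild-type libraries were at 47.4, 64.7, 63.3 and 68.1 CPM and its 5xFAD libraries at 74.5, 104, 61.8 and 46.2. The groups overlapped over most of their range, and 1 5xFAD library, replicate 4, lay below all wild-type libraries. The log2 fold change was 0.20 (SE 0.155, edgeR adjusted p 0.711), with a 95% interval of -0.13 to 0.53. Among 8 filament partners in a separate list, such as nestin (Nes) and synemin (Synm), 0 passed, and their median log2 fold change was -0.03. Nes, a filament of immature and reactive astrocytes, had a log2 fold change of -0.22 (SE 0.207, edgeR adjusted p 0.756).

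Of the secreted members, Serpina3n, a serine protease inhibitor, was at 47.9, 46.7, 52.8 and 27.3 CPM in wild-type and at 87.8, 69.4, 77.6 and 43.0 CPM in 5xFAD. In this gene 3 of 4 5xFAD libraries lay above all wild-type libraries and replicate 4 lay among them. Its log2 fold change of 0.68 (SE 0.265) did not pass (edgeR adjusted p 0.437, unadjusted 0.0210). It passed in 1 other setting, with no filter on low counts (log2 fold change 0.68, edgeR adjusted p 2.80e-05). That setting called more genes in every comparison, here 398 against 162 with the filter. The gene sits in a cluster of close copies, so reads could be split among them. Of the 10 copies listed, Serpina3g alone had enough counts for a test, and it reached at most 1.34 CPM. Lcn2, an iron-siderophore carrier that is strongly induced by systemic inflammation, had only 2 to 26 counts per library. Its log2 fold change was -0.54 with a 95% interval of -1.94 to 0.85, so a change of either sign within this range remained possible.

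Aspg, an asparaginase-family enzyme, was called although it is scarce. It was at 1.17, 1.44, 2.32 and 1.40 CPM in wild-type and at 3.26, 6.07, 4.14 and 3.94 in 5xFAD, from 24 to 52 and 51 to 109 counts. Every 5xFAD library was above every wild-type library. The log2 fold change was 1.47 (SE 0.255, edgeR adjusted p 0.00643), or 2.76-fold with a 95% interval of 1.90 to 4.02. Leaving out any 1 of the 16 libraries kept the call (adjusted p 0.00452 to 0.0329). It was lost without the 4 libraries that stood apart (log2 fold change 1.23, edgeR adjusted p 0.0775), in males alone (1.19, 0.220) and with only these 2 genotypes in the fit (1.46, 0.143).

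Osmr, the oncostatin M receptor, was at 4.92, 7.46, 8.82 and 8.15 CPM in wild-type and at 13.6, 14.4, 12.9 and 10.4 in 5xFAD. The groups did not overlap, and the log2 fold change was 0.80 (SE 0.176, edgeR adjusted p 0.0407). This call was marginal. It was kept only without wild-type replicate 3, Dp16 replicates 2 or 3, 5xFAD-Dp16 replicate 3 or 5xFAD replicate 4, and lost without any 1 of the other 11 libraries (adjusted p 0.0125 to 0.154 over all 16). It was also lost without the 4 libraries that stood apart (0.90, edgeR adjusted p 0.0673), with midbrain and choroid plexus scores in the fit (mean standardised log2 CPM of each list; 0.80, 0.0611), in males alone (0.74, 0.230) and with these 2 genotypes alone (0.80, 0.247).

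The signalling partners of Osmr did not pass. Among 16 genes of interleukin 6 family signalling, 12 were tested, 0 passed and the median log2 fold change was 0.13. Il6st, the receptor chain that Osmr pairs with, had a log2 fold change of 0.13 (SE 0.115, edgeR adjusted p 0.746). Stat3, the transcription factor downstream, had 0.16 (SE 0.123, edgeR adjusted p 0.723), and Socs3, its feedback inhibitor, had 0.46 (SE 0.335, edgeR adjusted p 0.702). Osm, the ligand, was too scarce for a test, with at most 0.895 CPM in any library.

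The remaining receptors overlapped between 5xFAD and wild-type. Cd44, a hyaluronan receptor, was at 7.50, 7.11, 5.39 and 8.97 CPM in wild-type and at 6.84, 12.3, 11.1 and 6.02 in 5xFAD. The spread within 5xFAD exceeded that within wild-type, and the log2 fold change was 0.33 with a 95% interval of -0.23 to 0.88 (edgeR adjusted p 0.724). S1pr3, a sphingosine 1-phosphate receptor, was at 9.78, 10.2, 8.73 and 7.97 CPM in wild-type and at 11.8, 9.91, 14.1 and 5.52 in 5xFAD. Its lowest and one of its highest values both came from 5xFAD libraries, and the log2 fold change was 0.17 with a 95% interval of -0.32 to 0.66 (edgeR adjusted p 0.841). In the lists of their ligands and partners, 0 of 9 tested hyaluronan-related genes and 0 of 9 tested genes of the sphingosine 1-phosphate pathway passed.

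Ggta1, which adds terminal galactose to glycans, was at 4.82, 4.45, 5.34 and 7.74 CPM in wild-type and at 11.1, 12.8, 8.77 and 7.69 in 5xFAD. Only 1 5xFAD library, replicate 4, fell below the highest wild-type library, replicate 4. The log2 fold change of 0.84 (SE 0.228) did not pass (edgeR adjusted p 0.135). It passed without wild-type replicate 4 (log2 fold change 1.06, edgeR adjusted p 0.0426), without all 4 libraries that stood apart (1.09, 0.0339), with the same tissue scores in the fit (0.91, 0.0168), with no filter on low counts (0.84, 0.00458) and in DESeq2 (0.84, adjusted p 0.0405). Steap4, a membrane metalloreductase, was at 0.292, 3.06, 1.87 and 0.996 CPM in wild-type and at 1.53, 0.557, 2.01 and 0.789 in 5xFAD. Its wild-type libraries alone spanned more than the 5xFAD libraries did, and its log2 fold change was -0.23 with a 95% interval of -1.61 to 1.14 (edgeR adjusted p 0.926).

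**Figure D2:**
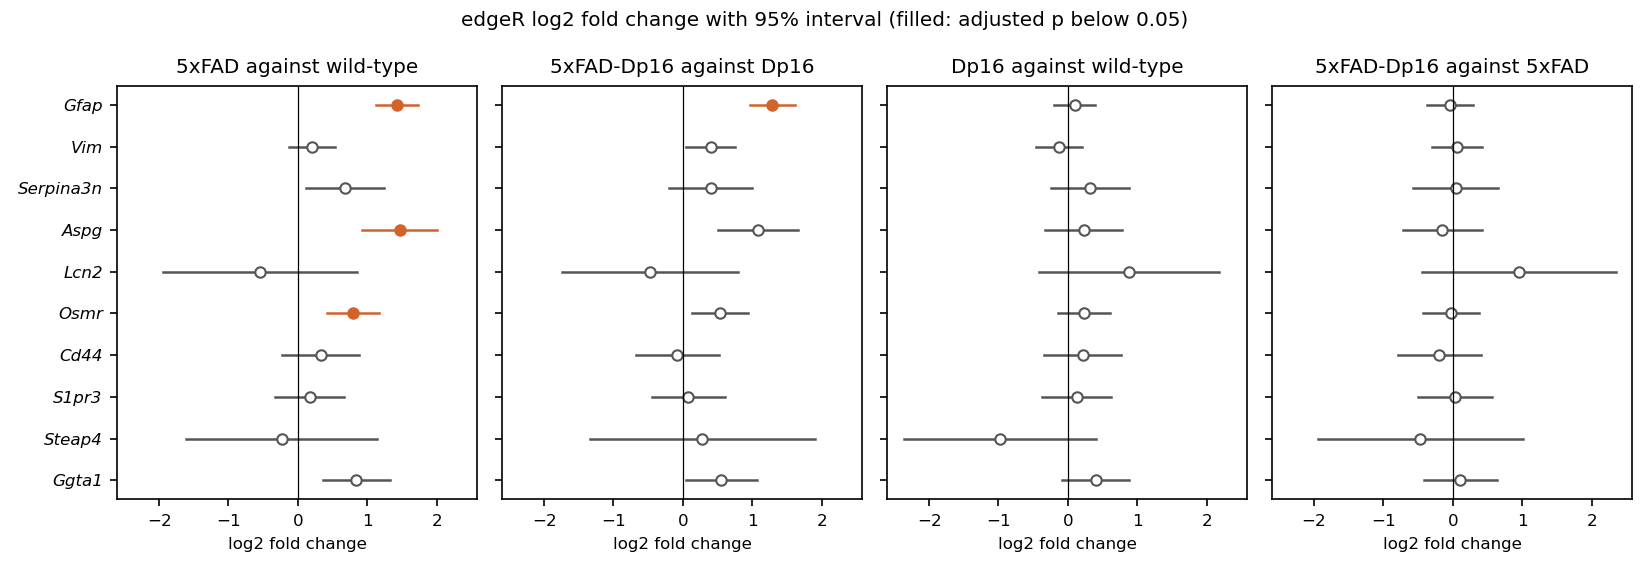
Log2 fold change of the 10 genes (horizontal axis, 95% interval as bars) in 4 genotype comparisons, with filled points for an edgeR adjusted p below 0.05. Gfap is called in both comparisons that add the 5xFAD transgenes, Aspg and Osmr in 5xFAD against wild-type, and none of the 10 in the comparisons that add Dp16.

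On the Dp16 background, the transgenes were tested by 5xFAD-Dp16 against Dp16. Here 1 of the 10 members, Gfap, was called higher, against 0.827% of all genes, and 2, Gfap and Aspg, had no overlap between groups, against 3.71%. Again 8 had a positive log2 fold change, against 53.4% of all genes, with a median of 0.40 against 0.02. Because 5xFAD-Dp16 had no females, each comparison with it rests on a sex term estimated in the other genotypes.

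Gfap was at 479, 449, 496 and 416 CPM in Dp16 and at 1037, 1274, 973 and 911 in 5xFAD-Dp16. The groups were far apart, with a log2 fold change of 1.29 (SE 0.153, edgeR adjusted p 0.000205), or 2.45-fold with a 95% interval of 1.95 to 3.06. The call was kept in each alternative setting and with each library left out. Without the 4 libraries that stood apart it was 1.30 (SE 0.132, edgeR adjusted p 5.02e-05), and in males alone 1.14 (SE 0.181, edgeR adjusted p 0.0270).

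Aspg was at 1.52, 1.98, 2.29 and 1.67 CPM in Dp16 and at 3.28, 4.82, 3.9 and 4.58 in 5xFAD-Dp16, with no overlap. Its log2 fold change of 1.09 (SE 0.271) missed the threshold (edgeR adjusted p 0.0941). It passed without a sex term (1.16, edgeR adjusted p 0.0440), with no filter on low counts (1.09, 0.0352) and in DESeq2 (1.08, adjusted p 0.0278). Osmr was at 10.2, 6.69, 9.49 and 8.26 CPM in Dp16 and at 13, 12.8, 9.47 and 11.2 in 5xFAD-Dp16. Of the 4 carrier libraries 3 lay above all Dp16 libraries, and the log2 fold change was 0.54 (SE 0.190, edgeR adjusted p 0.359).

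Ggta1 was at 4.83, 8.15, 9.37 and 6.96 CPM in Dp16 and at 9.11, 12.8, 10.4 and 9.62 in 5xFAD-Dp16. The groups overlapped by 1 library on each side, and the log2 fold change was 0.55 (SE 0.239, edgeR adjusted p 0.543). Serpina3n was at 61.9, 53.7, 65.1 and 37.2 CPM in Dp16 and at 79.4, 106, 54.7 and 57.2 in 5xFAD-Dp16, with a log2 fold change of 0.40 (SE 0.283, edgeR adjusted p 0.712). Vim was at 69.6, 44.6, 55.6 and 52.9 CPM in Dp16 and at 68.4, 63.2, 53.9 and 66.6 in 5xFAD-Dp16. Its log2 fold change was 0.40 (SE 0.167, edgeR adjusted p 0.514). The other 4, Cd44, S1pr3, Lcn2 and Steap4, had log2 fold changes of -0.08, 0.08, -0.47 and 0.28, and none passed.

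No member was called with Dp16 alone. In Dp16 against wild-type 0 of the 10 passed in edgeR, 0 had an unadjusted p below 0.05, and DESeq2 called 0 as well. Over all genes 0.0839% passed, and 3.31% had an unadjusted p below 0.05. Gfap had a log2 fold change of 0.10 (SE 0.141, edgeR adjusted p 0.990) with a 95% interval of -0.20 to 0.40, that is 0.869-fold to 1.32-fold. For Aspg it was 0.23 with an interval of -0.32 to 0.78, for Osmr 0.23 with -0.14 to 0.61, and for Serpina3n 0.32 with -0.24 to 0.88. The values were positive in 8 of the 10 members, against 46.9% of all genes, with a median of 0.22 against -0.01, and each interval included 0.

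With the transgenes in both groups, 5xFAD-Dp16 against 5xFAD, 0 of the 10 passed in edgeR, 0 had an unadjusted p below 0.05 and 0 passed in DESeq2, where 0.0539% of all genes passed in edgeR and 3.28% had an unadjusted p below 0.05. Gfap averaged 1049 ± 159 CPM in 5xFAD-Dp16 and 1176 ± 279 in 5xFAD (SD, n = 4), and the libraries overlapped. The log2 fold change, with the sex term in the fit, was -0.04 with a 95% interval of -0.37 to 0.29, or 0.774-fold to 1.22-fold. Its sign depended on the fit, with 0.14 in males alone, 0.02 with tissue scores and 0.13 with these 2 genotypes alone. For Aspg the log2 fold change was -0.15 with an interval of -0.72 to 0.42, with 0.06 in males alone, 0.04 with the 2 genotypes alone and 0.03 without the 4 libraries that stood apart. Only Lcn2 had no overlap between these groups, at 0.453, 0.725, 0.507 and 0.736 CPM in 5xFAD-Dp16 and 0.128, 0.223, 0.335 and 0.444 in 5xFAD. It rested on 8 to 17 and 2 to 9 counts, with a log2 fold change of 0.95 (SE 0.657, edgeR adjusted p 1.00). Across all genes 1.33% had 5xFAD-Dp16 above 5xFAD with no overlap.

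The interaction asks whether the transgene effect differs with Dp16. It too rests on a sex term taken as equal in all genotypes, since 5xFAD-Dp16 had no females. In edgeR 0 of the 10 members and 0 of all 16684 genes passed, with 0 members and 332 genes (1.99%) at an unadjusted p below 0.05, and DESeq2 called 5 genes, 0 of them members. For Gfap the log2 difference of effects was -0.14 (SE 0.207, edgeR adjusted p 1.00) with a 95% interval of -0.58 to 0.30. The interval for Aspg was -1.17 to 0.41 and that for Osmr -0.81 to 0.29, so differences of either sign within these ranges remained possible.

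Against wild-type, 5xFAD-Dp16 had 2 of the 10 members called higher, Gfap and Aspg, where 0.983% of all genes were. Gfap had a log2 fold change of 1.39 (SE 0.155, edgeR adjusted p 0.000109) and Aspg of 1.32 (SE 0.273, edgeR adjusted p 0.0281). The call of Aspg was lost without wild-type replicate 1 (edgeR adjusted p 0.174), wild-type replicate 2 (0.0650), 5xFAD-Dp16 replicate 2 (0.0864) or 5xFAD-Dp16 replicate 4 (0.0901), in males alone (log2 fold change 1.24, edgeR adjusted p 0.184) and with these 2 genotypes alone (edgeR adjusted p 0.345). The groups did not overlap in 5 members, Gfap, Aspg, Serpina3n, Osmr and Ggta1, against 3.08% of all genes. Osmr was at a log2 fold change of 0.77 (edgeR adjusted p 0.0819), Ggta1 at 0.95 (edgeR adjusted p 0.117) and Serpina3n at 0.72 (edgeR adjusted p 0.547). Osmr passed without wild-type replicate 3, and Ggta1 without wild-type replicate 4 or without Dp16 replicate 1. Without the 4 libraries that stood apart, Osmr was at 0.86 (edgeR adjusted p 0.0484) and Ggta1 at 1.05 (edgeR adjusted p 0.0234), and both also passed in DESeq2 (adjusted p 0.0183 and 0.0241). Serpina3n passed only with no filter on low counts (edgeR adjusted p 4.33e-05).

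Counted over both backgrounds, the 8 transgene libraries all lay above the 8 others in 2 members. The share of all genes with such a separation was not computed, so the counts in this paragraph only describe the members. In the 2 separate comparisons, 3.18% (5xFAD against wild-type) and 3.71% (5xFAD-Dp16 against Dp16) of all genes were higher with no overlap. Gfap was at 841 to 1491 CPM in carriers and 387 to 496 in the others, and Aspg at 3.26 to 6.07 and 1.17 to 2.32. For Osmr 7 of 8 carrier libraries exceeded the highest library without the transgenes, for Ggta1 and Serpina3n 5 of 8, for S1pr3 4, for Vim 2, for Cd44 1, and for Lcn2 and Steap4 0.

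Females and males could be compared in wild-type, Dp16 and 5xFAD. Gfap was at 1292 and 1491 CPM in the 2 female 5xFAD libraries and at 841 and 1081 in the 2 male ones, against 459 and 463 in female and 387 and 422 in male wild-type libraries. The transgene effect in females minus that in males was 0.35 on the log2 scale (SE 0.223, edgeR adjusted p 0.433), with a 95% interval of -0.15 to 0.84. The female and male libraries did not overlap in 5xFAD or in wild-type, and the difference of effects did not pass. With 2 libraries of each sex such a gap says little, and its share over all genes was not computed. A library that stood apart in genes of other regions was in each of the female 5xFAD, male 5xFAD and female wild-type pairs. In this test 0 of the 9 members tested and 0 of 16416 genes passed in edgeR, and 0 members and 2448 genes (14.9%) had an unadjusted p below 0.05, while DESeq2 called 1 gene. Lcn2 had too few counts to be tested here. The value for Serpina3n was 0.82 (SE 0.470, edgeR adjusted p 0.391), and for Vim 0.46 (SE 0.315, edgeR adjusted p 0.454).

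Lists of related genes place the members beside other astrocyte programmes. The lists were assembled with earlier results of these data known, and their counts are descriptions. In 5xFAD against wild-type, 0 of the 18 homeostatic astrocyte genes passed and their median log2 fold change was 0.04, while the median over the 10 members was 0.51. Aqp4, the water channel of astrocyte endfeet, had 0.46 (SE 0.162, edgeR adjusted p 0.342), Aldh1l1, a folate enzyme used as a general astrocyte marker, 0.08 (SE 0.0823, edgeR adjusted p 0.790), and Slc1a2, the main glutamate transporter, -0.15 (SE 0.208, edgeR adjusted p 0.841). In 5xFAD-Dp16 against Dp16, 0 of the 18 passed and the median was 0.06.

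Of the 10 genes described for A1-type astrocytes, the state that microglial cytokines induce, 3 passed in 5xFAD against wild-type. They were the class I genes H2-D1 at a log2 fold change of 1.02 (SE 0.124, edgeR adjusted p 0.000210) and H2-T23 at 0.98 (SE 0.177, edgeR adjusted p 0.00856), and the immunoproteasome subunit Psmb8 at 1.18 (SE 0.229, edgeR adjusted p 0.0161). In 5xFAD-Dp16 against Dp16, H2-D1 alone passed, at 0.92 (SE 0.135, edgeR adjusted p 0.00164). These 3 genes present or prepare antigen in many cell types, microglia included, and reads of H2 genes can match other copies. Psmb8 lost its call on leaving out replicate 1, 2 or 3 of wild-type (highest edgeR adjusted p 0.0787), in males alone (0.0543) and with these 2 genotypes alone (0.201). H2-T23 lost it without the 4 libraries that stood apart (log2 fold change 0.90, edgeR adjusted p 0.0570), in males alone (1.01, 0.220) and with the 2 genotypes alone (0.98, 0.0574). In males alone H2-D1 was uncalled in 5xFAD against wild-type (1.04, edgeR adjusted p 0.0954) and in 5xFAD-Dp16 against Dp16 (0.94, 0.0799).

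Of 8 tested A2-type genes, described after ischaemia, 1 passed in each comparison. It was Cd14, a lipopolysaccharide co-receptor best known from myeloid cells, at 1.61 (SE 0.153, edgeR adjusted p 1.35e-05) in 5xFAD against wild-type and at 1.40 (SE 0.167, edgeR adjusted p 0.000211) in 5xFAD-Dp16 against Dp16, where it was uncalled in males alone (1.31, edgeR adjusted p 0.0535). Of 3 further tested genes described for every reactive state, 0 passed in either comparison. The chemokine Cxcl10 had the widest difference of the 3 in 5xFAD against wild-type, 2.36 (SE 0.645, edgeR adjusted p 0.140), from 0.318 ± 0.139 CPM in wild-type to 1.67 ± 0.836 in 5xFAD (SD, n = 4). It passed in 5xFAD-Dp16 against wild-type, at 3.05 (SE 0.686, edgeR adjusted p 0.0463). That call rested on 4 to 11 counts in wild-type and 14 to 91 in 5xFAD-Dp16. The alternative settings and left-out libraries were not run for it.

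Genes described for astrocytes around plaques passed in 4 of 13 cases in 5xFAD against wild-type, with a list median of 0.32. Bulk tissue does not show which cells made these transcripts, and this was not tested. In the same comparison 8 of 10 genes of plaque-associated microglia passed, with a median of 2.38. Complement C4b was at a log2 fold change of 1.5 (SE 0.263, edgeR adjusted p 0.00717), and its reads can be shared with a near-identical copy. The tetraspanin Cd9 was at 1.12 (SE 0.131, edgeR adjusted p 0.000132), the lysosomal protease Ctsb at 0.44 (SE 0.0866, edgeR adjusted p 0.0192) and the calcium-binding S100a6 at 0.71 (SE 0.160, edgeR adjusted p 0.0448). The call of Ctsb was lost on leaving out replicate 1, 2 or 3 of wild-type or replicate 1 of 5xFAD (highest edgeR adjusted p 0.0901), and that of S100a6 without any of 12 libraries, being kept only without replicate 4 of wild-type, Dp16 or 5xFAD-Dp16 or replicate 2 of 5xFAD. Ctsb also lost it with no filter on low counts (0.44, edgeR adjusted p 0.0708), in males alone (0.45, 0.220) and with these 2 genotypes alone (0.44, 0.348), and C4b in males alone (1.17, 0.220). S100a6 lost it with no sex term (0.70, edgeR adjusted p 0.0511), in males alone (0.88, 0.205), without the 4 libraries that stood apart (0.68, 0.106), with tissue scores in the fit (0.67, 0.0951) and with the 2 genotypes alone (0.70, 0.240). In 5xFAD-Dp16 against Dp16, Cd9 alone passed, at 1.02 (SE 0.142, edgeR adjusted p 0.000977), with a list median of 0.43.

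The known inducers included 3 genes that passed in both comparisons, the complement subunits C1qa, C1qb and C1qc, which microglia make. In 5xFAD against wild-type they were at log2 fold changes of 1.5, 1.44 and 1.45, and in 5xFAD-Dp16 against Dp16 at 1.31, 1.32 and 1.19, with edgeR adjusted p of at most 7.07e-05. Il1a was at 2.00 (SE 0.542, edgeR adjusted p 0.137) in 5xFAD against wild-type and at most 1.45 CPM, and Tnf was too scarce for a test. Of 10 genes of iron and lipocalin handling, the setting in which Lcn2 and Steap4 act, 0 passed in 5xFAD against wild-type. In 5xFAD-Dp16 against Dp16 the ferritin light chain Ftl1 passed at 0.46 (SE 0.0956, edgeR adjusted p 0.0306), a call lost without any of 9 libraries (highest edgeR adjusted p 0.161), with no sex term (0.37, edgeR adjusted p 0.196), in males alone (0.42, 0.323), with tissue scores in the fit (0.44, 0.192) and with these 2 genotypes alone (0.44, 0.20). In Dp16 against wild-type no gene of these lists passed.

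**Figure D3:**
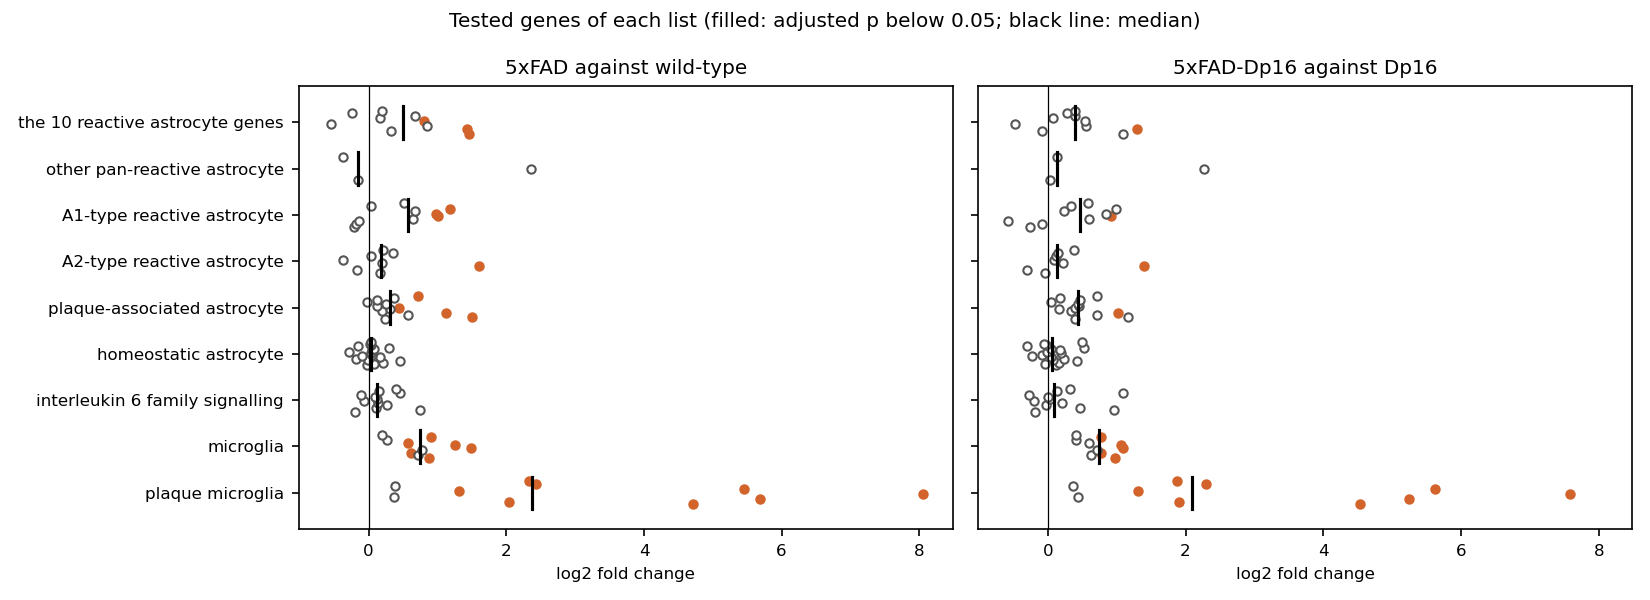
Log2 fold change (horizontal axis) of every tested gene in the 10 members and 8 comparison lists, filled where the edgeR adjusted p was below 0.05, with a black line at each list median. Homeostatic astrocyte genes centre near 0 in both panels, the members and the A1-type and plaque-associated genes spread to the right, and plaque microglia genes reach farthest.

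Microglial genes were also higher where Gfap, Aspg and Osmr were. In 5xFAD against wild-type 6 of 10 microglia markers passed, all higher, with a median log2 fold change of 0.75, and 8 of 10 genes of plaque-associated microglia passed, with a median of 2.38. Summed over the latter list, 5xFAD libraries were at 830 to 1329 CPM and 5xFAD-Dp16 libraries at 752 to 933, against 340 to 402 in wild-type and 326 to 386 in Dp16, and none of its 10 genes was at 0 throughout a genotype. The phagocytic receptor Trem2 was at a log2 fold change of 2.43 (SE 0.155, edgeR adjusted p 2.80e-07). Lists of 8 endothelial, 8 mural, 8 meningeal, 8 ependymal, 8 choroid plexus, 8 oligodendrocyte and 8 neuronal genes had 0 called in this comparison. Neutrophils also make Lcn2, and 8 neutrophil genes summed to 19.7 CPM in 5xFAD replicate 4 and to 0.192 to 3.91 CPM in the other libraries. Ly6g was at 0 in 3 of the 4 genotypes and had 1 count, in 5xFAD replicate 4. The part of these other cells in the members' values was not tested.

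Pooled over all genotypes with genotype and sex means removed, Gfap went with microglial genes. It went against the mean of the plaque-associated astrocyte list, though not against each of its genes. An r inside any single genotype was not computed, so the relation is not shown for each genotype. Gfap varied more among carriers (841 to 1491 CPM) than among the other libraries (387 to 496 CPM), so carriers weigh more in these values. After genotype and sex means were removed, its Pearson r with the microglia list was 0.85 (Spearman rho 0.82) and with the plaque microglia list 0.76 (rho 0.76), each over the same 16 libraries. With the plaque-associated astrocyte list its r was -0.77 (rho -0.74), and with interleukin 6 family signalling 0.75 (rho 0.70). C4b, a gene of that plaque-associated list, went the other way, with an r of 0.92 to Gfap. These points share library depth and dissection, and with the thalamus list r was -0.73. Serpina3n resembled Gfap in this respect, with r of 0.87 to the plaque microglia list, 0.89 to interleukin 6 family signalling and -0.86 to the plaque-associated astrocyte list, and the pair had r of 0.83 with each other. Gfap and Aspg, the members that separated carriers from the others, had an r of 0.27 once genotype and sex were removed. The r of Gfap with Vim was 0.50, with Osmr 0.47 and with Ggta1 0.56. Among the other members, r with the plaque microglia list was 0.71 for S1pr3, 0.40 for Osmr and 0.34 for Vim. It was 0.13 for Steap4, 0.085 for Ggta1, -0.0087 for Aspg, -0.41 for Cd44 and -0.49 for Lcn2.

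The genes most like Gfap over all 16 libraries, among 14559 with a mean of at least 1 CPM, were Itgax (r 0.99), Itgb2 (0.98), Mpeg1 (0.98), Ctsz (0.98), Ctss (0.98), Plek (0.98), C1qc (0.98) and C1qb (0.98). Differences between carriers and non-carriers count toward this measure. Most are known from myeloid cells: Itgax and Itgb2 are integrin chains, Mpeg1 a pore-forming protein of macrophages, and Ctsz and Ctss lysosomal cathepsins. After genotype and sex means were removed the closest were C5ar1 (r 0.93), Tubb2b (0.93), Wasf3 (0.92), C4b (0.92), Bclaf1 (0.92), Egln1 (0.91), Tmbim6 (0.90) and Lig4 (0.90). No gene was in both sets.

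Steap4 differed from the other members in what it moved with. After genotype and sex means were removed its r with the choroid plexus list was 0.90 (rho 0.93) and with the ependymal list 0.88 (rho 0.84), over 16 libraries. The choroid plexus list, which includes the thyroxine carrier Ttr, summed to 38.7 to 195 CPM in 6 libraries and to 1592 to 6528 CPM in the other 10, with nothing between. Steap4 was at 0.171 to 0.996 CPM in the 6 (median 0.406) and at 0.507 to 3.06 CPM in the 10 (median 1.25). The 10 were spread over all genotypes, with 2 each in wild-type and Dp16 and 3 each in 5xFAD and 5xFAD-Dp16. In Dp16 against wild-type Steap4 had a log2 fold change of -0.98 with a 95% interval of -2.37 to 0.40, and with the choroid plexus and midbrain scores in the fit it was -0.71 (SE 0.410, edgeR adjusted p 1.00). Ggta1 had an r of -0.76 with the same list.

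**Figure D4:**
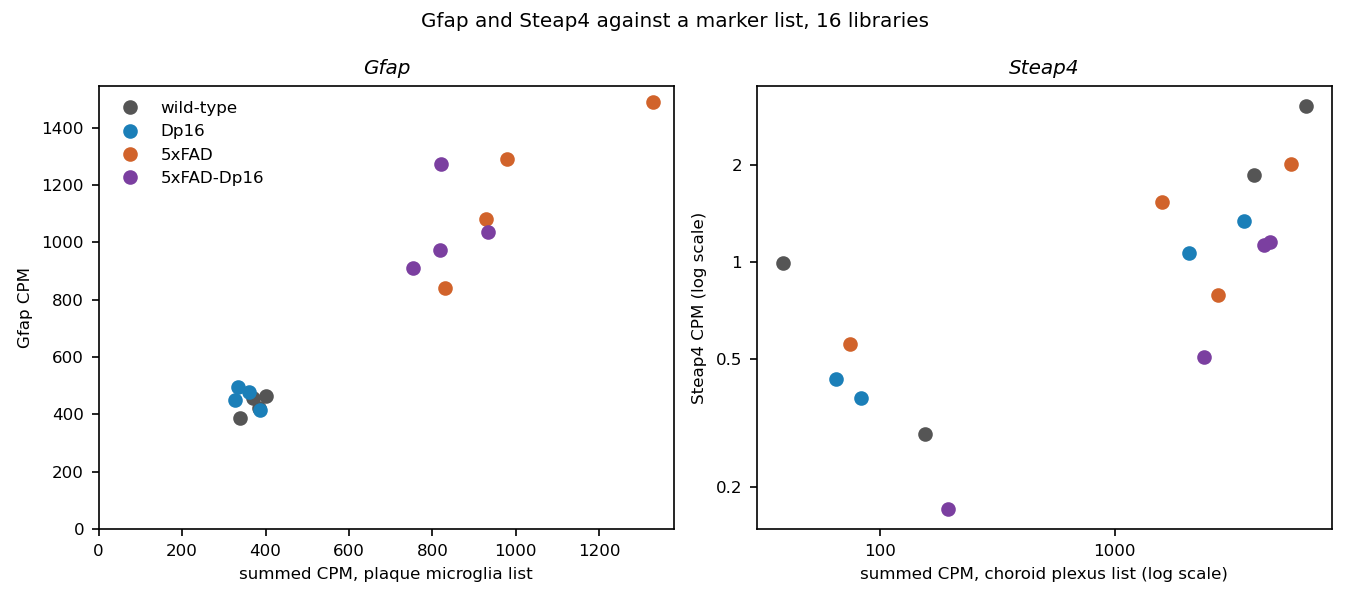
Left, Gfap CPM against the summed CPM of 10 plaque microglia genes, and right, Steap4 CPM against the summed CPM of 8 choroid plexus genes with both axes on a log scale, 1 point per library coloured by genotype. Carriers and non-carriers form separate groups on the left, while on the right the libraries of each genotype lie on both sides of the gap between 195 and 1592 CPM.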

How the data were processed

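Hippocampal polyadenylated RNA of 16 mouse samples was sequenced as paired ends from strand-specific libraries, per the labels' protocols. Per the submitters' processing notes, bcl2fastq, FastQC 0.11.5, HISAT2 2.1.0, SAMtools 1.5 and HTSeq 0.6.1 were used with build GRCm38. The authors deposited raw read counts per gene for 55385 genes. The deposited RPKM values (counts per gene length and library total) implied 1 gene length across libraries in 27505 of 27505 genes checked, within a relative tolerance of 1e-06. They were used only for levels between genes.

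Counts were tested with edgeR 4.0.16 (R 4.3.3): filterByExpr over the 4 groups, TMM scaling, robust dispersions and a quasi-likelihood test with terms for genotype and sex over all 16 libraries. A model with genotype by sex terms used the 12 libraries of the genotypes with both sexes. Benjamini-Hochberg adjustment ran over all genes tested, and genes were called below 0.05. SE was the fold change divided by the root of the F statistic. CPM are TMM-scaled, and log2 CPM used a prior count of 2. The steps were tested on simulated data. Coordinates and overlaps came from a GENCODE annotation of GRCm38 and promoters from RefSeq.

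The alternatives were DESeq2 1.42.0, limma-trend (limma 3.58.1), relative log expression scaling, no low-count filter, no sex term, males only, a replicate block, tissue scores, 4 libraries left out, the 2 groups alone, and each library left out. Counting precision is limited by the 15.8 to 25 M counts per library. The members and lists were chosen with earlier results of these data known. Named genes were all 10 members, up to 4 called genes of each list with the smallest p, and the 8 most like Gfap by each measure. Partners of a member that were not called (such as Il6st, Stat3, Nes, Aqp4, Cxcl10) were named after their values were seen.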

Additional observations from a re-analysis of the deposited data

How the results depend on the processing

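Gfap kept its call in 5xFAD against wild-type, 5xFAD-Dp16 against Dp16 and 5xFAD-Dp16 against wild-type under each alternative and with each library left out. Depth limited Lcn2 (2 to 26 counts) and Steap4 (4 to 70 counts). Settings were compared over the members in all comparisons and over the called list genes in 5xFAD against wild-type and 5xFAD-Dp16 against Dp16. Other settings gave 878 values of the same sign and call, 41 calls lost, 16 gained and 28 changes of sign. Leaving out 1 library gave 1494, 63, 4 and 51. Each value that changed sign was uncalled. The causes were not tested.

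In counts of members called, 5xFAD against wild-type (3) became 5 with no low-count filter, 1 in males only and 1 with the 2 groups alone. 5xFAD-Dp16 against Dp16 (1) became 2 in DESeq2, with no filter and with no sex term. 5xFAD-Dp16 against wild-type (2) became 4 in DESeq2, 5 with no filter, 1 in males only, 4 without the 4 libraries that stood apart and 1 with the 2 groups alone, and it ranged from 1 to 3 with each library left out. In counts of all genes called, DESeq2 gave 277 in 5xFAD against wild-type (162 in edgeR), 245 in 5xFAD-Dp16 against Dp16 (141), 38 in Dp16 against wild-type (14), 25 in 5xFAD-Dp16 against 5xFAD (9), 5 for the interaction (0) and 1 for the difference between sexes (0). With no filter on low counts they were 398, 620, 210, 75, 128 and 872, and 355 in 5xFAD-Dp16 against wild-type (169). Males only gave 44, 49, 0 and 0 in the first 4 of these comparisons and 61 in 5xFAD-Dp16 against wild-type, and the 2 groups alone gave 76, 81, 4, 0 and 40. In 5xFAD-Dp16 against 5xFAD, no sex term gave 17 and the replicate block 0, and in Dp16 against wild-type leaving out the 4 libraries gave 39. With each library left out the counts ranged from 109 to 189 in 5xFAD against wild-type, 76 to 146 in 5xFAD-Dp16 against Dp16 (76 without Dp16 replicate 2, 80 without Dp16 replicate 3), 3 to 17 in Dp16 against wild-type, 0 to 11 in 5xFAD-Dp16 against 5xFAD, 80 to 172 in 5xFAD-Dp16 against wild-type (80 without wild-type replicate 1, 99 without wild-type replicate 3) and 0 to 1 for the difference between sexes.

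Log2 fold changes that changed sign were these. In 5xFAD against wild-type, males only gave Vim -0.049, Lcn2 1.21 and Steap4 0.35, and leaving out the 4 libraries gave Lcn2 0.048 and Steap4 0.12. In 5xFAD-Dp16 against Dp16, Steap4 was -0.15 with no sex term and -0.43 with tissue scores. In 5xFAD-Dp16 against wild-type, Cd44 was -0.057 with tissue scores. In 5xFAD-Dp16 against 5xFAD, Vim was -0.19 with no sex term, males only gave Gfap 0.14, Aspg 0.056 and Osmr 0.014, leaving out the 4 libraries gave Serpina3n -0.090, Aspg 0.028, S1pr3 -0.24 and Ggta1 -0.041, tissue scores gave Gfap 0.018, and the 2 groups alone gave Gfap 0.13 and Aspg 0.038. For the interaction, limma-trend gave Lcn2 -0.10, no sex term gave Vim -0.055, males only gave Serpina3n 0.068 and Lcn2 -2.16, leaving out the 4 libraries gave Lcn2 -0.60, and tissue scores gave Gfap 0.00054, S1pr3 0.020 and Steap4 -0.031.

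With each library left out, log2 values that crossed 0 ranged as follows. In 5xFAD against wild-type, Steap4 ranged from -0.80 to 0.22, Lcn2 from -1.0 to 0.31 and S1pr3 from -0.070 to 0.40. In 5xFAD-Dp16 against Dp16, Cd44 ranged from -0.28 to 0.067, Lcn2 from -0.64 to 0.22, S1pr3 from -0.099 to 0.18 and Steap4 from -0.028 to 0.62. In 5xFAD-Dp16 against wild-type, Lcn2 ranged from -0.19 to 1.08 and Cd44 from -0.060 to 0.28. In 5xFAD-Dp16 against 5xFAD, Osmr ranged from -0.12 to 0.060, Serpina3n from -0.25 to 0.16, S1pr3 from -0.27 to 0.36, Ggta1 from -0.055 to 0.19, Gfap from -0.21 to 0.029, Aspg from -0.27 to 0.025, Cd44 from -0.39 to 0.068, Steap4 from -0.78 to 0.29 and Vim from -0.10 to 0.17. For the interaction, Steap4 ranged from -0.095 to 1.30, Lcn2 from -0.95 to 0.66 and S1pr3 from -0.40 to 0.23. For the difference between sexes, Ggta1 ranged from -0.073 to 0.72, Aspg from -0.071 to 0.91, Osmr from -0.40 to 0.44, Cd44 from -0.64 to 0.34 and S1pr3 from -0.35 to 0.99.

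Same-numbered libraries did not deviate together: the r of deviations ranged from -0.35 to 0.35 in 24 same-numbered pairs, 9 of them above 0.1, and 3 of 16 libraries were closest to their own number. The numbers were thus not taken as pairs. A replicate block gave Osmr 0.058 in 5xFAD-Dp16 against 5xFAD, where the fit without it gave -0.03. It gave Osmr 0.81 in 5xFAD against wild-type (edgeR adjusted p 0.0546, against 0.0407 without it) and changed the call of no other member in that comparison. The 2 groups alone could not be fitted for the interaction, which needs 4 groups, and was not run for the difference between sexes.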
